A study of Arabidopsis thaliana with 4 samples.

Results

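The WRKY transcription factor family of Arabidopsis thaliana was followed in whole Col-0 wild-type seedlings of 2 ages. Its members were taken from the authors' table of transcription factors, which places 1369 genes in 77 families and lists 45 genes as WRKY. One listed gene was set aside by the rule that chose the members, so 44 remained. Of these, 36 lay in the table of read counts, among 26784 genes in all, and they are the genes described here. The other 8 (WRKY2, WRKY8, WRKY16, WRKY24, WRKY30, WRKY49, WRKY51 and WRKY75) lie on chromosome 5 and were not analysed here, since the count table as held ends on that chromosome at position 3070933.

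Messenger RNA was sequenced from seedlings of 6 days post germination (dpg) and of 2 dpg, with 2 libraries at each age and no treatment. Both ages grew on plates of half-strength MS medium containing 0.5% sucrose. After 2 days of cold and dark at 4 °C the plates stood at 22 °C under days of 12 h light. By its title and tables the study is concerned with transcription factors of the young seedling. The hour of harvest is not given, so for genes with a daily rhythm age and harvest time cannot be told apart.

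WRKY factors are plant transcription factors that carry 1 or 2 WRKY domains, each a DNA-binding fold with a bound zinc ion. They recognise the W-box, a short motif read here as TTGACC or TTGACT, and many WRKY genes carry W-boxes in their own promoters. Members of group I typically have 2 such domains, those of group II have 1 and fall into subgroups IIa to IIe, and those of group III have 1 with another type of zinc finger. The family is best known for defence against pathogens, where MAP kinases activate several members, and for responses to heat, drought and phosphate shortage, and other members act in trichomes, seed coats and senescing leaves. The 36 genes measured comprised 11 of group I, 2 of IIa, 6 of IIb, 5 of IIc, 6 of IId, 5 of IIe and 1 of group III, by the usual published grouping.

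Library totals recovered from the authors' FPKM were 22745278 and 18330153 reads at 6 dpg and 26570983 and 20587872 reads at 2 dpg, and the genes in the table account for 79.9 to 81.0% of these. In a library, 3 reads equal 0.113 to 0.164 CPM (read counts scaled to library size). All levels are CPM after scaling by the TMM method, unless given per kilobase. Of 16160 genes tested with edgeR across the whole table, 9153 changed at a Benjamini-Hochberg adjusted p under 0.05, that is 56.6%, with 28.3% higher and 28.4% lower at 6 dpg. The labels do not say whether the replicates were grown separately. The p-values therefore reflect the spread of these 4 libraries alone, and that spread may be technical. Markers of green tissue, root and xylem were all detected, with the Rubisco small subunit gene RBCS-1A at 13006 to 17217 CPM, while the seed storage genes CRC and AT2S1 reached at most 0.704 CPM and the floral gene AP3 at most 0.205 CPM. Of the 7 markers tested, 6 were lower at 6 dpg, namely the root genes CASP1, CASP2, BHLH83 and EXPA18, the xylem gene XCP1 and the antenna gene LHCB6 (log2 fold changes from -2.30 to -1.11). In whole seedlings, fewer cells of a type and less RNA per cell cannot be told apart, and the part of these markers in the WRKY changes was not tested.

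More WRKY genes rose than fell between the 2 ages. Of the 36 genes, all of which passed the filter on low counts, 19 were higher at 6 dpg, 5 were lower and 12 had no call (edgeR quasi-likelihood test, adjusted p under 0.05). The shares were 52.8% higher, where 28.3% of all tested genes were, and 13.9% lower, where 28.4% were. These are shares of the listed genes alone. Another 5 tested genes described as WRKY were not listed, and none of them was called. The family median log2 fold change (6 dpg over 2 dpg) was 0.55, beside 0.00 for all genes tested. Changes of at least 2-fold were called for 12 genes upward, where 11.6% of all tested genes passed this rule, and for 1 gene downward, where 12.5% did. WRKY56 and WRKY41 passed the filter through the 6 dpg libraries alone and WRKY59 through the 2 dpg libraries alone. The filter thus set the direction of their difference, though not whether it was called. Among the other 33 genes 17 were higher and 5 lower, of which 10 and 1 changed at least 2-fold. In 29 of the 36 genes the libraries of the 2 ages did not overlap, a share close to the 80.6% found for all tested genes.

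Summed over the 36 genes, expression was 597 and 621 CPM in the 6 dpg libraries and 439 and 462 CPM in the 2 dpg libraries, or 609 ± 17.3 and 450.5 ± 16.3 CPM (mean ± SD, n = 2 each). Both 6 dpg sums lay above both 2 dpg sums. Group I accounted for most of the difference, with 223 ± 13.3 CPM at 6 dpg and 112 ± 14.1 CPM at 2 dpg. Group IIc summed to 42.8 ± 1.24 and 17.6 ± 3.14 CPM at 6 dpg and 2 dpg. The sums of group IIe overlapped between ages, at 64 ± 7.15 CPM at 6 dpg and 68.5 ± 1.21 CPM at 2 dpg.

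**Figure D1:**
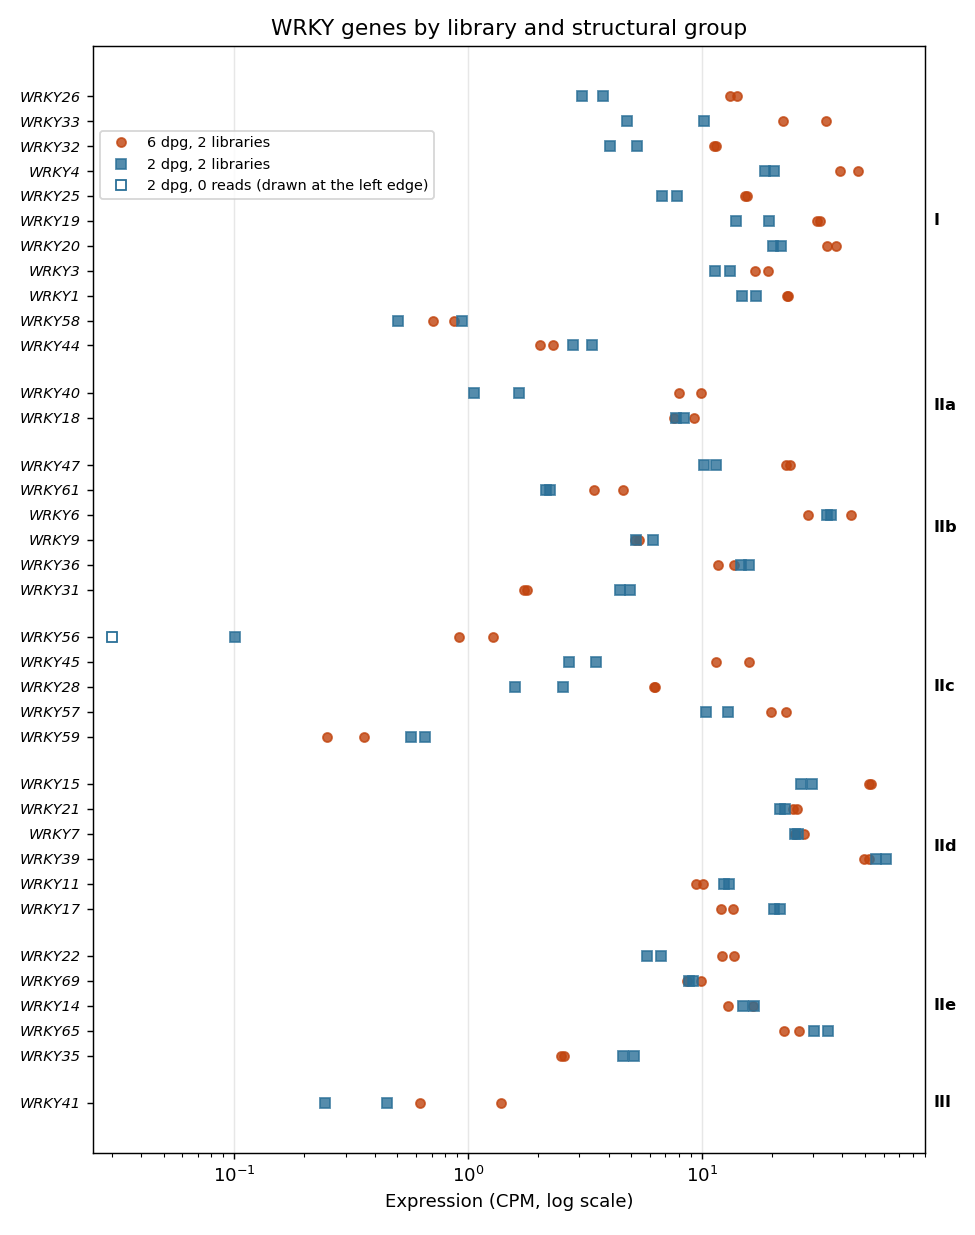
Expression of the 36 WRKY genes in CPM on a log axis, by structural group (right margin), with 1 point per library (circles, 6 dpg; squares, 2 dpg; the open square marks 0 reads). In group I the 6 dpg libraries of 9 of 11 genes lie to the right of both 2 dpg libraries. WRKY31, WRKY35, WRKY17, WRKY11 and WRKY65 show the opposite order, as do 4 genes with no call. Of all 16160 genes tested, 6528 had both 6 dpg libraries above both 2 dpg libraries and 6495 had them below.

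Most genes of group I rose. Of 11 tested, 9 were called higher and none lower by edgeR, where 28.3% and 28.4% of all tested genes were, none was lower at an unadjusted p under 0.05, and DESeq2 called 9 and 0. Their median log2 fold change was 0.93. WRKY26, WRKY33 and WRKY25, close relatives that act together in heat tolerance, all rose. WRKY26 (AT5G07100, chromosome 5, 2204248 to 2205811 as listed by the authors) stood at 14.1 and 13.3 CPM in the 6 dpg libraries and at 3.07 and 3.77 CPM in the 2 dpg libraries. It rose 4.02-fold (log2 2.01 ± 0.17 SE, edgeR adjusted p = 3.74e-05), with close replicates at both ages.

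WRKY33 (AT2G38470, chromosome 2, 16108361 to 16110766), a substrate of the MAP kinases MPK3 and MPK6 that switches on synthesis of the antifungal compound camalexin, had 22.3 and 34 CPM at 6 dpg and 4.79 and 10.2 CPM at 2 dpg. The ages did not overlap, but the libraries of each age lay far apart. Its log2 fold change was 1.92 ± 0.31 (SE, edgeR adjusted p = 0.000937), and it was between 1.46 (without 2 dpg replicate 1) and 2.54 (without 2 dpg replicate 2) when 1 library was left out, called each time. WRKY25, which also interacts with the MAP kinase substrate MKS1, had 15.3 and 15.6 CPM at 6 dpg and 6.76 and 7.84 CPM at 2 dpg, a log2 fold change of 1.08 ± 0.15.

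WRKY4 (AT1G13960, chromosome 1, 4776463 to 4779400), which with WRKY3 acts against necrotrophic fungi, was the group I gene with the highest level per length. It had 38.9 and 46.6 CPM at 6 dpg and 18.7 and 20.4 CPM at 2 dpg (log2 fold change 1.13 ± 0.14 SE, edgeR adjusted p = 0.000179). Its relative WRKY3 rose less, by 0.55 on the log2 scale, a call that was lost without 6 dpg replicate 1. WRKY32 (AT4G30935) had 11.5 and 11.3 CPM at 6 dpg and 4.06 and 5.28 CPM at 2 dpg, and it rose 2.45-fold (edgeR adjusted p = 0.000374). WRKY1, a zinc-dependent activator also named ZAP1, WRKY19 and WRKY20 rose by 0.54, 0.93 and 0.78. WRKY19 joins WRKY sequence to parts of an immune receptor and a protein kinase. At 5867 bases it is the longest of the 36 genes, and its value was 0.37, still called, once each library's trend with gene length was removed.

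Only WRKY44 and WRKY58 of group I had no call. WRKY44, also named TTG2, acts in trichome outgrowth and seed coat mucilage and pigment. It had 2.04 and 2.3 CPM at 6 dpg and 3.4 and 2.81 CPM at 2 dpg, with a log2 fold change of -0.53 ± 0.24 (edgeR adjusted p = 0.0941). WRKY58 was near 1 CPM in every library, at 0.707 and 0.87 CPM at 6 dpg and 0.942 and 0.503 CPM at 2 dpg.

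**Figure D2:**
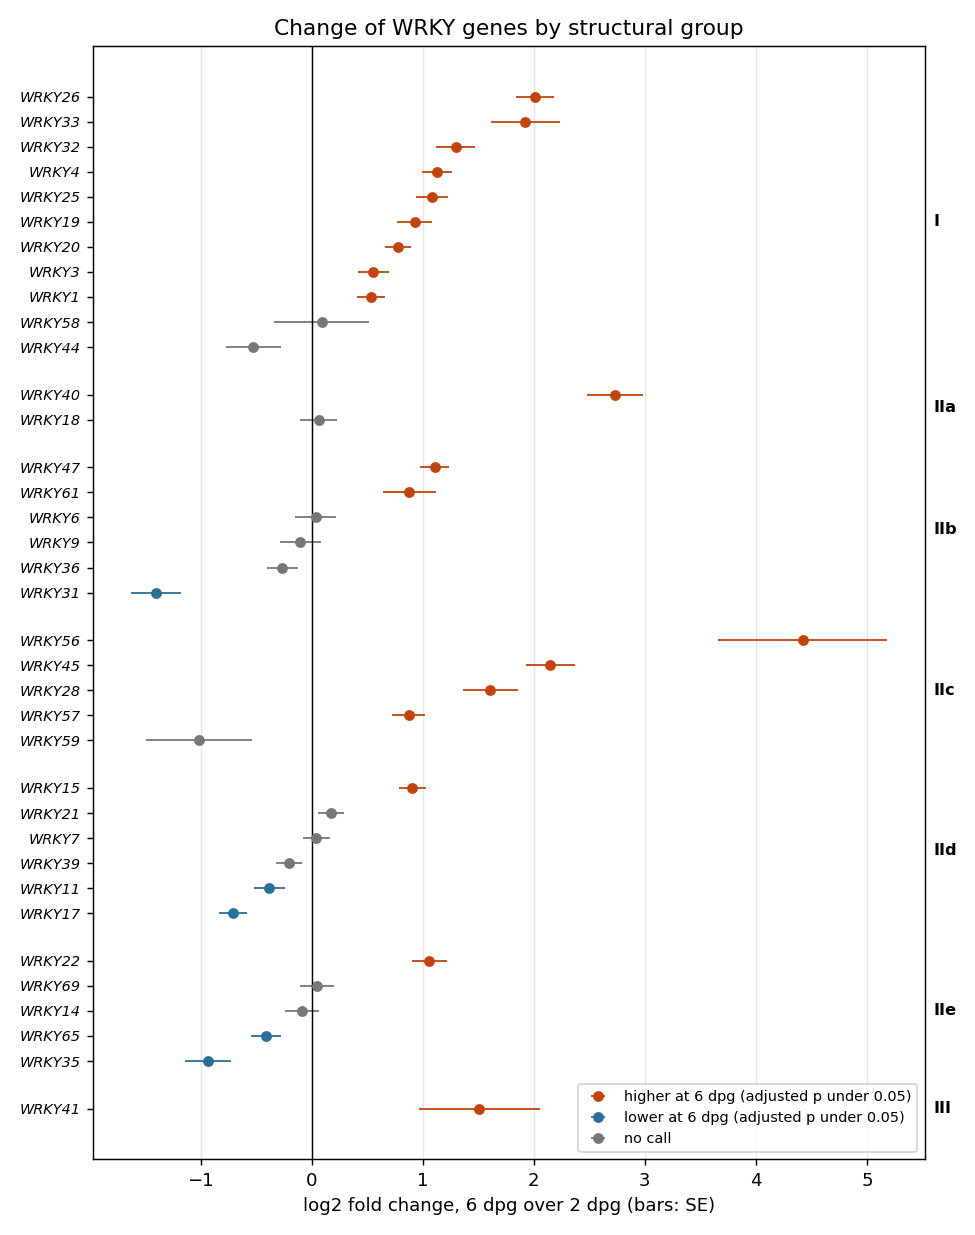
Log2 fold change of each WRKY gene, 6 dpg over 2 dpg, with its SE as bars, ordered within structural groups. Group I and IIc hold 13 of the 19 genes called higher, while 4 of the 5 called lower belong to IId and IIe and the lowest, WRKY31 at -1.41, to IIb.

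In group IIa, whose 3 genes WRKY18, WRKY40 and WRKY60 are partly redundant repressors in defence and abscisic acid signalling, WRKY40 alone was called. WRKY40 (AT1G80840, chromosome 1, 30383691 to 30385499) had 7.99 and 9.93 CPM in the 6 dpg libraries and 1.07 and 1.66 CPM in the 2 dpg libraries. The groups were well apart, and it rose 6.64-fold (log2 2.73 ± 0.26 SE, edgeR adjusted p = 5.25e-05), the largest change of a member with at least 20 reads in every library. WRKY18 had 7.61 and 9.31 CPM at 6 dpg and 7.78 and 8.39 CPM at 2 dpg, with overlapping libraries (log2 fold change 0.06 ± 0.17 SE, edgeR adjusted p = 0.768). WRKY60, which the authors' table does not list as a family member, had 3.16 and 3.74 CPM at 6 dpg and 2.79 and 4.42 CPM at 2 dpg, also overlapping (log2 fold change -0.06 ± 0.27 SE, edgeR adjusted p = 0.872). Per kilobase of length, WRKY40 stood at 7.5 ± 1.15 at 6 dpg and 1.14 ± 0.351 at 2 dpg, and WRKY18 at 6.8 ± 0.965 and 6.5 ± 0.346 at the same ages (CPM per kilobase, mean ± SD, n = 2 each).

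Group IIb held both rising and falling genes. WRKY47 (AT4G01720, chromosome 4, 744921 to 748554) had 23.9 and 22.9 CPM at 6 dpg and 10.2 and 11.6 CPM at 2 dpg and rose 2.15-fold (edgeR adjusted p = 0.000166). WRKY61 was called higher at a lower level (log2 fold change 0.88), a call lost with DESeq2 and without 6 dpg replicate 1. WRKY31 (AT4G22070, chromosome 4, 11691378 to 11694392) was the 1 member called lower with a change of at least 2-fold. It had 1.79 and 1.74 CPM at 6 dpg and 4.47 and 4.93 CPM at 2 dpg (log2 fold change -1.41 ± 0.22 SE, edgeR adjusted p = 0.000806), with replicates close and ages well apart.

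WRKY6, a relative of WRKY31 and a repressor of the phosphate exporter gene PHO1, was the most abundant IIb gene per length and had no call. It had 28.5 and 43.7 CPM at 6 dpg and 35.9 and 34.3 CPM at 2 dpg, so that both 2 dpg libraries fell between the 6 dpg libraries (log2 fold change 0.04 ± 0.19 SE, edgeR adjusted p = 0.879). WRKY36, which represses the light signalling gene HY5 in seedlings, and WRKY9, which promotes root suberin under salt, had no call either, with log2 fold changes of -0.26 and -0.11.

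Of the listed genes of group IIc, WRKY45, WRKY28 and WRKY57 passed the filter on low counts in both ages. All 3 were called higher, where 28.3% of all tested genes were. WRKY56 and WRKY59 passed this filter through 1 age alone and are given by their reads. WRKY23, a IIc gene the authors do not list, had 60 and 37 reads at 6 dpg and 40 and 40 at 2 dpg. It had no call (log2 fold change 0.28 ± 0.28 SE, edgeR adjusted p = 0.415). WRKY45 (AT3G01970, chromosome 3, 326397 to 327412), an activator of phosphate uptake that also promotes leaf senescence, had 11.6 and 15.9 CPM at 6 dpg and 2.7 and 3.52 CPM at 2 dpg. It rose 4.43-fold (log2 2.15 ± 0.22 SE, edgeR adjusted p = 8.2e-05). WRKY28 (AT4G18170), an activator of the isochorismate synthase gene of salicylic acid synthesis, had 6.24 and 6.29 CPM at 6 dpg and 1.6 and 2.56 CPM at 2 dpg (log2 fold change 1.61 ± 0.25 SE, edgeR adjusted p = 0.000698). Its 6 dpg libraries nearly coincided and its 2 dpg libraries spread more widely, yet the ages stayed apart.

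WRKY57, a drought tolerance factor and the IIc gene with the highest level per length, had 22.9 and 19.8 CPM at 6 dpg and 10.5 and 13 CPM at 2 dpg (log2 fold change 0.87 ± 0.15 SE, edgeR adjusted p = 0.00129). WRKY56 (AT1G64000) was read 22 and 25 times at 6 dpg and 0 and 2 times at 2 dpg. That is 47 against 2 reads, a ratio of 23.9 after scaling (95% exact interval 6.26 to 203, counting error only). Since it passed the filter through 6 dpg alone, its direction was set by the filter, and its call is no independent support. The fitted log2 fold change of 4.42 was 3.37 without 2 dpg replicate 1 and 7.63 without 2 dpg replicate 2, which leaves the library with 0 reads. At 0.915 and 1.28 CPM it remained one of the least expressed members at 6 dpg. WRKY59 was read 6 and 7 times at 6 dpg and 14 and 13 times at 2 dpg and was not called (log2 fold change -1.01 ± 0.48 SE, edgeR adjusted p = 0.0975).

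The calmodulin-binding factors of group IId split by gene. WRKY15 (AT2G23320, chromosome 2, 9924933 to 9926372), which acts in growth under salt and oxidative stress, had 52.1 and 52.9 CPM at 6 dpg and 26.5 and 29.6 CPM at 2 dpg (log2 fold change 0.91 ± 0.12 SE, edgeR adjusted p = 0.000312). It was the member with the highest level per length at 6 dpg, at 42.4 ± 0.47 CPM per kilobase, against 22.7 ± 1.77 at 2 dpg (SD, n = 2 each). WRKY17 and WRKY11, redundant negative regulators of resistance to Pseudomonas bacteria, were lower. WRKY17 had 13.6 and 12.1 CPM at 6 dpg and 21.7 and 20.5 CPM at 2 dpg (log2 fold change -0.71 ± 0.13 SE, edgeR adjusted p = 0.00167), a call lost when libraries were scaled on ribosomal protein genes. WRKY11 had 9.49 and 10.1 CPM at 6 dpg and 12.5 and 13.1 CPM at 2 dpg, a log2 fold change of -0.38 that lost its call in 8 of 12 alternative settings. WRKY7, WRKY21 and WRKY39 had no call, with log2 fold changes of 0.04, 0.17 and -0.21. WRKY21 was called higher with library totals alone (0.35), and WRKY39 lower without 2 dpg replicate 2 (-0.28). WRKY39 held the second place of the family per length at both ages, with 49.6 and 51.8 CPM at 6 dpg and 61.3 and 55.9 CPM at 2 dpg.

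In group IIe, WRKY22 rose and WRKY35 and WRKY65 were called lower. WRKY22 (AT4G01250, chromosome 4, 522604 to 524216), which acts below the flagellin-activated MAP kinases, had 13.8 and 12.2 CPM at 6 dpg and 5.86 and 6.68 CPM at 2 dpg (log2 fold change 1.06 ± 0.16 SE, edgeR adjusted p = 0.000581). WRKY65 (AT1G29280), the IIe gene with the highest level per length and the first of the whole family at 2 dpg, had 26.1 and 22.6 CPM at 6 dpg and 34.6 and 30.3 CPM at 2 dpg. Its log2 fold change of -0.41 ± 0.13 (edgeR adjusted p = 0.0252) lost its call in 6 of 12 alternative settings. WRKY35 had 2.58 and 2.51 CPM at 6 dpg and 4.63 and 5.13 CPM at 2 dpg, a log2 fold change of -0.93, with its call lost under ribosomal protein scaling. The relatives of these genes, WRKY14 and WRKY69, had no call, at log2 fold changes of -0.09 and 0.05. WRKY29, a IIe gene the authors do not list, had no call either, at -0.26.

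WRKY41, the 1 gene of group III in the set, was read 15 and 27 times at 6 dpg and 6 and 9 times at 2 dpg. It is known from flagellin responses and from seed dormancy. It passed the filter through 6 dpg alone. Its level was 0.624 and 1.38 CPM at 6 dpg and 0.246 and 0.452 CPM at 2 dpg, so the ages did not overlap but the replicates of each lay widely apart. The log2 fold change of 1.51 ± 0.55 (SE, edgeR adjusted p = 0.0412) was 0.87 and no longer called without 6 dpg replicate 2, and the call was also lost without either 2 dpg library and with DESeq2.

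By level per length the family changed its order between the ages. At 6 dpg the first 4 genes were WRKY15, WRKY39, WRKY65 and WRKY4, at 42.4 ± 0.47, 25 ± 0.769, 24.3 ± 2.51 and 22.2 ± 2.79 CPM per kilobase (mean ± SD, n = 2 each). At 2 dpg they were WRKY65, WRKY39, WRKY15 and WRKY6, at 32.4 ± 3.01, 28.9 ± 1.88, 22.7 ± 1.77 and 17.6 ± 0.586 CPM per kilobase. The ranges of the 2 libraries of WRKY39 and WRKY65 overlapped at both ages. At 6 dpg those of WRKY65 and WRKY4 also overlapped, as did those of WRKY4 and WRKY6 in the fifth place. At 2 dpg those of WRKY6 and of WRKY7 in the 5th place overlapped narrowly. WRKY45 moved up to the 9th place at 6 dpg, against the 24th at 2 dpg, WRKY33 to the 10th against the 22nd, and WRKY26 to the 16th against the 28th.

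The spread between libraries of 1 age was uneven across the family. At 6 dpg the median absolute log2 ratio of replicate 2 to replicate 1 was 0.17 for the WRKY genes and 0.14 for all genes tested, and at 2 dpg it was 0.19 and 0.20. WRKY33 was higher in replicate 2 at both ages, with log2 ratios of 0.61 at 6 dpg and 1.09 at 2 dpg, and 7.64% and 2.11% of tested genes were as far apart. WRKY41 had ratios of 1.15 and 0.88 at the same ages, WRKY40 of 0.31 and 0.64. WRKY6 differed at 6 dpg (0.61) and not at 2 dpg (-0.07). WRKY58 was lower in replicate 2 at 2 dpg, with a ratio of -0.91 on 23 and 10 reads. At 2 dpg replicate 2 was higher in 26 of the 35 WRKY genes with reads in both libraries, beside 8119 of 16114 of all tested genes. What set these libraries apart was not tested.

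**Figure D3:**
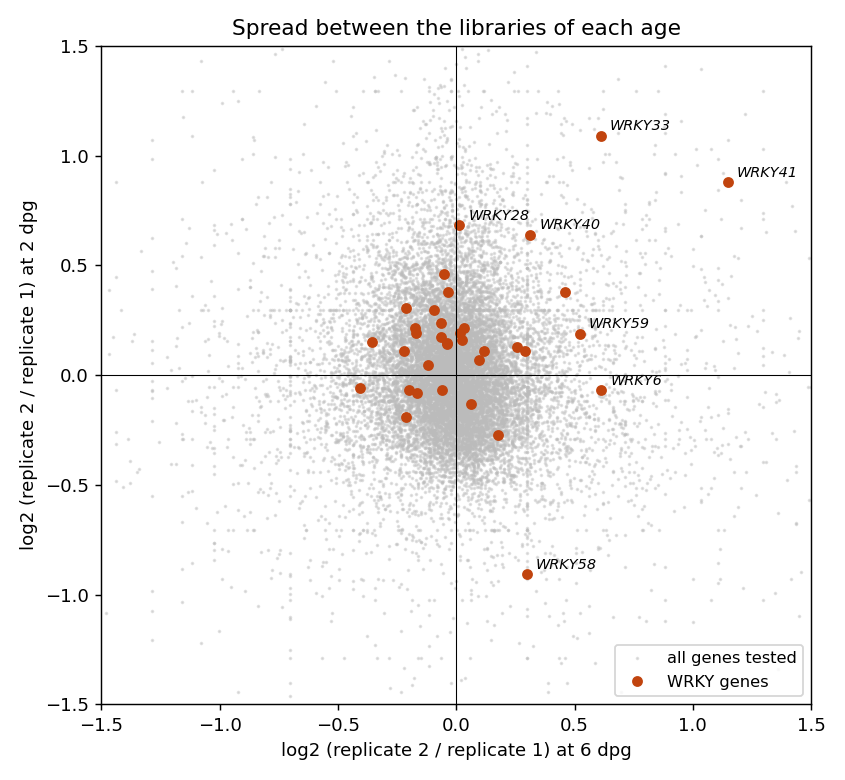
Log2 ratio of replicate 2 to replicate 1 at 6 dpg (horizontal) and at 2 dpg (vertical), for the WRKY genes (large points) and all genes tested (small grey points; those beyond 1.5 are not drawn). WRKY33 and WRKY41 lie apart from the bulk at both ages, WRKY6 at 6 dpg, and WRKY58 at 2 dpg in the other direction. WRKY41 and WRKY58 rest on few reads.

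Against other large families, the WRKY genes did not stand alone. Of the tested MYB genes 52.1% were called higher and 21.3% lower (94 genes, median log2 fold change 0.49). Of 45 NAC genes 20 were higher and 9 lower, with a median of 0.36. Of 65 AP2-EREBP genes 31 were higher and 13 lower, with a median of 0.40. Of 75 bHLH genes 27 were higher and 20 lower, with a median of 0.10. Over all 77 families 48.1% of 1080 tested genes were higher and 19.7% lower. Differences between families were not tested.

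**Figure D4:**
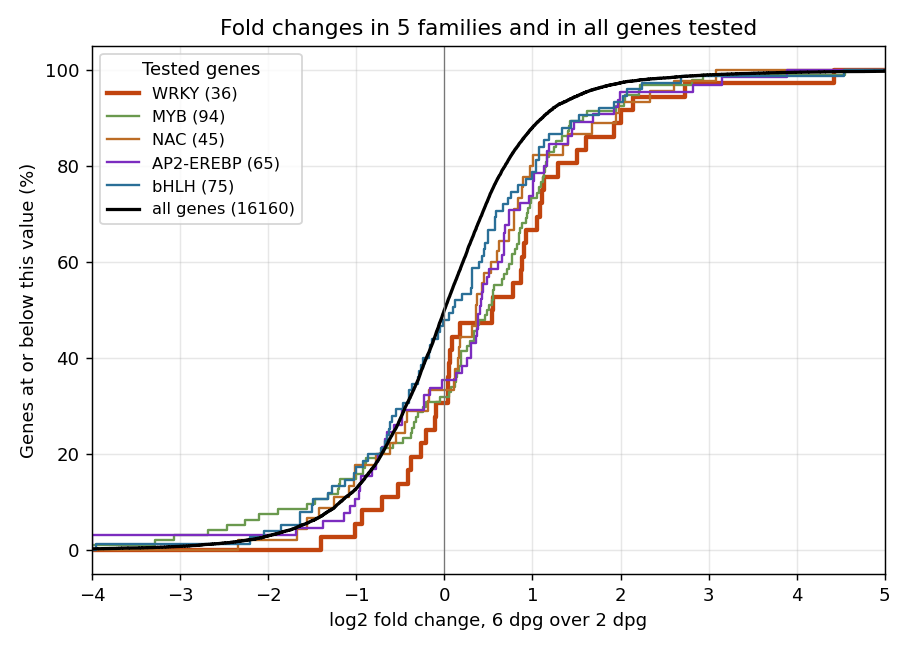
Cumulative share of tested genes (vertical, percent) by log2 fold change of 6 dpg over 2 dpg (horizontal) for the WRKY family, 4 other families and all 16160 genes tested. The WRKY curve runs to the right of that of all genes, with a median of 0.55, and the MYB curve at 0.49 lies near it.

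The count table holds another 21 genes described as WRKY that the authors' table does not list as members and that the rule did not set aside. Most were hardly read, and 10 had over 10 reads in all. Of the 5 tested (WRKY23, WRKY29, WRKY42, WRKY46 and WRKY60), none was called by edgeR or DESeq2, and none had an unadjusted p under 0.05. By edgeR 56.6% of all tested genes were called.

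Promoters of WRKY genes were read from the RefSeq genome TAIR10.1 as the 250 bases before each annotated gene start. W-boxes were searched as TTGACC and TTGACT on both strands, which share their first 5 bases. At least 1 was present in 28.4% of the promoters of 27443 coding genes, in 14 of the 36 WRKY genes (38.9%) and in 10 of the 19 called higher (52.6%). At least 2 were present in 6.18% of all promoters and in 5 of the 19. Of the 12 genes with no call 2 had one, and of the 5 called lower 2 had one. Among the 10 called higher, the windows of WRKY45, WRKY26, WRKY25 and WRKY19 also hold part of another gene. Such windows were kept in every set. WRKY41, also among the 10, passed the filter on low counts through 6 dpg alone. With 2 W-boxes and no other gene in the window there were 5, of WRKY33, WRKY41, WRKY32, WRKY15 and WRKY17. Those of the 4 genes other than the thinly read WRKY41 are shown, since 3 of these genes rose and WRKY17 fell. WRKY33 lies at chr2:16107985-16108234, plus strand, WRKY32 at chr4:15054108-15054357, minus strand, WRKY15 at chr2:9924636-9924885, plus strand and WRKY17 at chr2:10439470-10439719, minus strand. Each is written 5′ to 3′ toward the gene, with W-boxes in capitals (AGTCAA and GGTCAA are the motifs read on the other strand).
WRKY33: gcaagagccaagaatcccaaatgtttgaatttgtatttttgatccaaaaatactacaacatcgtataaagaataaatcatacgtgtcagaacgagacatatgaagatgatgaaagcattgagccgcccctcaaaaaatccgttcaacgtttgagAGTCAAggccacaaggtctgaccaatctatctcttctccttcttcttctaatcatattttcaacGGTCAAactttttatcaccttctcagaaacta
WRKY32: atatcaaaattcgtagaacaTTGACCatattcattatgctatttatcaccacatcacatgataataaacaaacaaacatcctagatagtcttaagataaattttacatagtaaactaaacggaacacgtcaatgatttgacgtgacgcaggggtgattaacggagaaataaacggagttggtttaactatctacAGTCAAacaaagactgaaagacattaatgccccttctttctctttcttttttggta
WRKY15: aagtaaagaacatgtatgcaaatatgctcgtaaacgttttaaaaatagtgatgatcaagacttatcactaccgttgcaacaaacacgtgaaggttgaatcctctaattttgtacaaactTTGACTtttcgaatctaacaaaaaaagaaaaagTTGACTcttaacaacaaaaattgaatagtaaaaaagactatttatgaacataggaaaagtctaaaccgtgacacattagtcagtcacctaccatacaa
WRKY17: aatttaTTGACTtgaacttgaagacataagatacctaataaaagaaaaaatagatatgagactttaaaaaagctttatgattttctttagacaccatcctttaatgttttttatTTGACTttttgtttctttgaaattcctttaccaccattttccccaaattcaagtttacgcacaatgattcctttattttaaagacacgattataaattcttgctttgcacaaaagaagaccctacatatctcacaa

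The W-boxes of WRKY33 start 96 and 32 bases before the annotated gene start, those of WRKY32 at 230 and 56, those of WRKY15 at 131 and 98 and those of WRKY17 at 244 and 136. The strongest rise at well-counted genes and the strongest fall came from promoters without these letters in the same window, WRKY40 (chr1:30383311-30383560, plus strand) and WRKY31 (chr4:11694591-11694840, minus strand), shown for comparison.
WRKY40: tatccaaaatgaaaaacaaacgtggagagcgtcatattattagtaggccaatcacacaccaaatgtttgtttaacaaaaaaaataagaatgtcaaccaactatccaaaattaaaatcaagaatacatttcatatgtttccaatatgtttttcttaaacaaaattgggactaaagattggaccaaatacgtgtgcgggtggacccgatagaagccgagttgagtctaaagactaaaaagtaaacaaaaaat
WRKY31: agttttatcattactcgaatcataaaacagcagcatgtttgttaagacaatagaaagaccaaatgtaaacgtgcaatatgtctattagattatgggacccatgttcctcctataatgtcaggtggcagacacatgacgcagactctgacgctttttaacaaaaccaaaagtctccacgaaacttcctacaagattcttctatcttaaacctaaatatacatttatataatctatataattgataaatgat
A match is a run of letters and not a measured site, and a window without one says only that these letters are not in it.

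Genes around the WRKY factors changed in both directions. Of 32 genes in a list of upstream MAP kinases, VQ-motif partner proteins and described targets, 31 were in the table and 22 were tested. Of these, 10 were higher and 4 lower at 6 dpg (45.5% and 18.2%, beside 28.3% and 28.4% of all tested genes), with a median log2 fold change of 0.44. Without 6 dpg replicate 2 the counts were 5 and 2, and without 6 dpg replicate 1 they were 12 and 1.

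Among 9 MAP kinase genes, 3 rose and 3 were lower. These shares, 33.3% each, are close to the 28.3% higher and 28.4% lower of all tested genes. MPK3, one of the kinases that phosphorylate WRKY33, had 43.2 and 43.8 CPM at 6 dpg and 22.3 and 21.7 CPM at 2 dpg (log2 fold change 0.98 ± 0.12 SE, edgeR adjusted p = 0.000162). MKK9, a kinase of the ethylene and camalexin pathways, had 10.8 and 13.9 CPM at 6 dpg and 9.14 and 7.44 CPM at 2 dpg (log2 fold change 0.56). MKK4, which activates MPK3 and MPK6, had 11.4 and 13.1 CPM at 6 dpg and 17.6 and 15.6 CPM at 2 dpg (log2 fold change -0.44). MKK2, which activates MPK4, had 23.1 and 23.4 CPM at 6 dpg and 30.4 and 29.9 CPM at 2 dpg (log2 fold change -0.37). With DESeq2, 2 kinase genes were called higher, and none of the 3 lower calls was made. MPK6 and MPK4, the other terminal kinases, had no call, at 0.27 and 0.01.

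Of the VQ-motif genes, whose proteins bind WRKY domains, 3 of 5 tested rose and none was lower by edgeR, by DESeq2 or at an unadjusted p under 0.05. DESeq2 called 2 of them higher. Of all tested genes, 28.3% were higher and 28.4% lower by edgeR. JAV1, a repressor of jasmonate defence, had 6.74 and 8.29 CPM at 6 dpg and 4.18 and 3.52 CPM at 2 dpg (log2 fold change 0.96 ± 0.20 SE, edgeR adjusted p = 0.00331). IKU1, a partner of WRKY10 in seed growth, had 29 and 27.3 CPM at 6 dpg and 18.7 and 17.1 CPM at 2 dpg (log2 fold change 0.65).

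Of 8 tested target genes 4 rose and 1 fell (50% and 12.5%, beside 28.3% and 28.4% of all tested genes). CYP71A13, a camalexin gene bound by WRKY33, had 2.25 and 3.17 CPM at 6 dpg and 0.123 and 0.201 CPM at 2 dpg. At 2 dpg it rested on 3 and 4 reads, and its log2 fold change was 4.04 ± 0.44 (SE, edgeR adjusted p = 0.000117). It passed the filter on low counts through 6 dpg alone, so its call is no independent support. That call is counted among these 4 and among the 10 of the whole list. PAD3, the last gene of the same pathway, had 1.12 and 9.42 CPM at 6 dpg and 0.901 and 1.61 CPM at 2 dpg, and only 0.11% of tested genes had 6 dpg replicates as far apart. It was not called (edgeR adjusted p = 0.0547). ACS2 and ACS6, ethylene synthesis genes bound by WRKY33, were also uneven at 6 dpg. They had 0.583 and 3.58 CPM and 8.28 and 15 CPM, each higher in replicate 2. At that age 18 of the 36 WRKY genes, WRKY33 among them, were higher in replicate 2, beside 7695 of 16133 tested genes. A link between the differences of WRKY33 and of these targets was not tested. At 2 dpg ACS2 had 1.76 and 2.36 CPM and ACS6 had 6.84 and 6.94 CPM. ACS6 was called higher (log2 fold change 0.75) and ACS2 was not (-0.03).

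EDS16, the isochorismate synthase gene that WRKY28 activates, fell to 11.4 and 11.8 CPM at 6 dpg, against 30.4 and 29.3 CPM at 2 dpg, while WRKY28 rose. Its log2 fold change was -1.37 ± 0.12 (SE, edgeR adjusted p = 4.3e-05). PHO1, which WRKY6 represses, had 118 and 97.7 CPM at 6 dpg and 70.3 and 76.7 CPM at 2 dpg (log2 fold change 0.55), and WRKY6 itself had no call. GL2, a target of WRKY44 in the epidermis, rose by 0.67, and WRKY44 had no call.

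**Figure D5:**
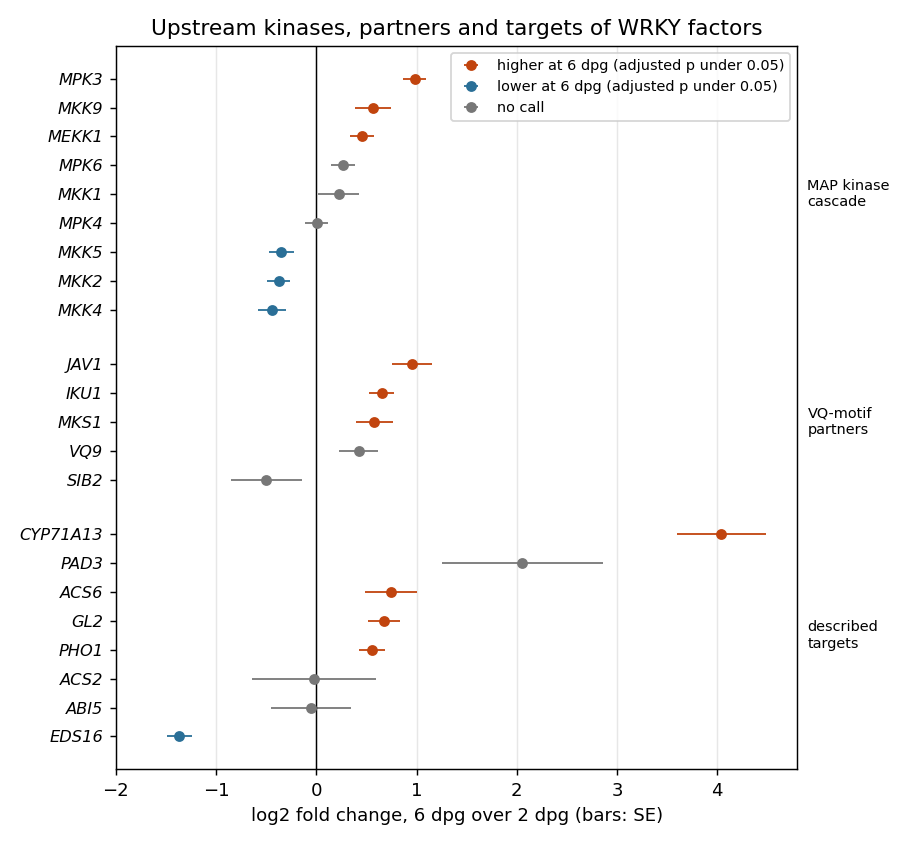
Log2 fold change of 6 dpg over 2 dpg, with SE as bars, for the 22 tested genes of the MAP kinase cascade, VQ-motif partners and described targets. CYP71A13 at 4.04, which passed the filter on low counts through 6 dpg alone, and EDS16 at -1.37 mark the ends. PAD3 has the widest bar, an SE of 0.81.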

How the data were processed

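Per the file headers, the authors deposited read counts per gene and library, taken as not normalized because they are whole numbers, with FPKM per library and a p-value adjusted over genes. The submitters' processing notes name TopHat2 2.0.12 and Bowtie2 2.2.3, HTSeq 0.6.1, DESeq 1.18.0 and CASAVA 1.8 without saying what each did. The genome build is not given in the sources used here. Per the labels' protocols, the library kit was NEBNext Ultra RNA, which does not mark strand.

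Counts were tested with edgeR 4.0.16 in R 4.3.3 (library totals recovered from count, FPKM and length, TMM factors, filterByExpr with a minimum count of 10, age as the only term, Benjamini-Hochberg adjustment over 16160 genes). SE is the absolute log2 fold change over the root of the quasi-likelihood F. DESeq2 1.42.0 was an alternative, and the fit was tested on simulated data. Chi-square per degree of freedom between replicates was 6.01 at 6 dpg and 16.5 at 2 dpg, above sampling noise in both pairs. In the authors' deposited table, of 36 members 21 had an adjusted p under 0.05; all 21 were also called here, with WRKY41, WRKY11 and WRKY65 besides. Of the 36 genes, 4 overlap another gene, by at most 6.3% of their span.

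The members and lists were chosen with earlier results of these data known. Values in every library are given for members called with an absolute log2 fold change of at least 1, for the highest member per length in each structural group and for group IIa; of the partner list, up to 2 called genes each way per sublist. Others named were chosen after their values were seen. Promoters were taken by locus from RefSeq TAIR10.1 with its own coordinates; gene positions are those of the authors' table.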

Additional observations from a re-analysis of the deposited data

How the results depend on the processing

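Across 12 alternative settings no called WRKY gene changed direction. The number called higher ranged from 17 to 20 (19 in the report). The number called lower was 5 in the report and 3 with DESeq2, with library totals alone and with length-trend offsets, and 1 with ribosomal protein scaling. Leaving out 1 library in turn gave 17 to 18 higher and 3 to 5 lower members, the 3 without 6 dpg replicate 2. Scaling on ribosomal protein genes moved the all-gene median (log2 fold change) to 0.29 and the calls to 5268 higher and 2173 lower, and library totals alone moved them to 0.17, 5781 and 3587, against 4568 and 4585 in the report. DESeq2 called 3724 and 3660 genes. Under ribosomal protein scaling WRKY17 and WRKY35 also lost their calls.

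For the partner and target list, the 4 genes called lower became 1 with DESeq2, with library totals alone and with ribosomal protein scaling. Without 1 library they ranged from 1 to 3, and the 10 called higher from 5 to 12. Values that changed sign all belonged to uncalled genes: WRKY9 and WRKY14 became 0.064 and 0.078 with library totals alone, and WRKY9, WRKY14, WRKY36 and WRKY39 became 0.17, 0.18, 0.015 and 0.086 with ribosomal protein scaling. WRKY6 became -0.032 with length-trend offsets. Without 1 library in turn, WRKY6 ranged from -0.29 to 0.32, WRKY7 from -0.017 to 0.10, WRKY9 from -0.22 to 0.0057, WRKY14 from -0.28 to 0.077, WRKY18 from -0.080 to 0.21, WRKY58 from -0.27 to 0.64 and WRKY69 from -0.056 to 0.15. The causes were not tested.

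With the replicate number as a block, 19 members were higher and 4 lower, WRKY11 being lost. The difference of replicate 2 from replicate 1 at 6 dpg did not go with that at 2 dpg. The correlation was r = -0.00976 across 16160 genes, which are not independent replicates. With a single difference per age, it cannot show whether samples of the same number shared a batch.

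The mean-count filter of 20 left out WRKY41, WRKY56, WRKY58 and WRKY59. Single genes near 1 CPM rest on few reads, and 2 libraries per age limit every estimate of spread.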
